A study of Mus musculus with 16 samples.

Results

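Liver neutrophils of Ift88Orpk mice were compared with liver neutrophils of wild type mice in 2 strains, C57BL/6 and BALB/c. The comparison uses 4 of the 16 RNA-seq libraries of the study: 1 library each of wild type and Ift88Orpk neutrophils in C57BL/6, and the same pair in BALB/c. All mice were 4 weeks old, and the RNA of 6 to 8 mice went into each library, with both sexes in equal number per the labels. The other 12 libraries hold Ly6Chi macrophages, Ly6Clo macrophages and cells bound by the lectin DBA (sorted as cholangiocytes), 4 of each from the same 2 strains and 2 genotypes. Since a genotype has 1 pool per strain, the strains serve as the replicates. P-values measure only spread between pools, and the other 12 libraries share in estimating it. The sources used here give neither the zygosity of Ift88Orpk nor the surface markers by which the neutrophils were sorted.

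Ift88 encodes a subunit of the intraflagellar transport machinery that builds and maintains cilia, and Orpk is a reduced-function allele of it that gives mice a hepatorenal fibrocystic disease with bile duct lesions. Neutrophils are short-lived granulocytes that leave the bone marrow carrying preformed granules and enter tissue along chemokine gradients. In tissue they switch on cytokine genes, glycolysis and survival genes. Circulating leukocytes are generally held to lack a primary cilium.

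The genes separated into those that moved the same way in both strains and those that moved in 1 strain. Of 11713 genes that reached 5 CPM (counts scaled to a common library size, with TMM factors) in at least 1 of the 4 libraries, 82 (0.7%) were at least 2-fold higher in Ift88Orpk in both strains. These included a run of stefin A protease inhibitor genes, Prok2, Wfdc17, Upp1, Tlr1, Nos2, Areg and S100a9. A further 41 genes (0.35%) were at least 2-fold lower in both, among them immunoglobulin genes, mitochondrially encoded messenger RNAs and several liver genes. The groups that differed between the strains were larger. In BALB/c only, 639 genes (5.46%) were higher and 493 (4.21%) lower, where "only" means at least 2-fold in that strain and under 0.5 on the log2 scale in the other. In C57BL/6 only, 182 genes (1.55%) were higher and 107 (0.914%) lower. These splits depend on the scaling: with upper-quartile factors they were 1064 higher and 422 lower for BALB/c only, and 200 and 170 for C57BL/6 only, and with TMM factors over the 4 neutrophil libraries 454 and 488, and 148 and 50. Upper-quartile factors also moved the median log2 ratio of all genes from -0.02 to -0.13 in C57BL/6 and from 0.08 to 0.27 in BALB/c. Another 391 genes (3.34%) were at least 2-fold higher in C57BL/6 and at least 2-fold lower in BALB/c, and 22 (0.188%) went the reverse way.

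Strain by strain, 866 genes (7.39%) were at least 2-fold higher and 244 (2.08%) at least 2-fold lower in C57BL/6 Ift88Orpk. In BALB/c, 959 (8.19%) were higher and 1276 (10.9%) lower. At any size of change, 2541 genes (21.7%) were higher in both strains, 2216 (18.9%) lower in both and 6919 (59.1%) moved in opposite directions. Log2 ratios, taken on CPM plus 1, had a median over all 11713 genes of -0.02 in C57BL/6 and 0.08 in BALB/c. Across these genes, which are not independent, the ratios of the 2 strains correlated with r = -0.21. Among the 4184 genes whose mean was highest in neutrophils of the 4 sorted populations, r was 0.22.

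No gene passed the test of genotype. With edgeR's quasi-likelihood test over all 16 libraries (genotype within neutrophils, with strain in the model), 0 of 21534 genes (0.0%) had a Benjamini-Hochberg adjusted p under 0.05, and 934 (4.34%) had an unadjusted p below that value. The test of strain by genotype, which asks whether the 2 strains differ in their response, also called 0 of 23604 genes (0.0%). Here 2896 genes (12.3%) had an unadjusted p below 0.05, and the smallest adjusted p was 0.133. DESeq2, run as the alternative on the same genes, called 26 genes for genotype and 482 for strain by genotype. The values below are therefore levels and ratios of single pools, and "higher" or "lower" states a value, not a passed test. A DESeq2 adjusted p is given for some genes. Where it is under 0.05, the gene passed in that alternative only, since edgeR called none. The strain by genotype fit matches the neutrophil libraries exactly. Its spread comes from the other sorted populations, so a lone neutrophil pool is taken to vary like those.

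**Figure D1:**
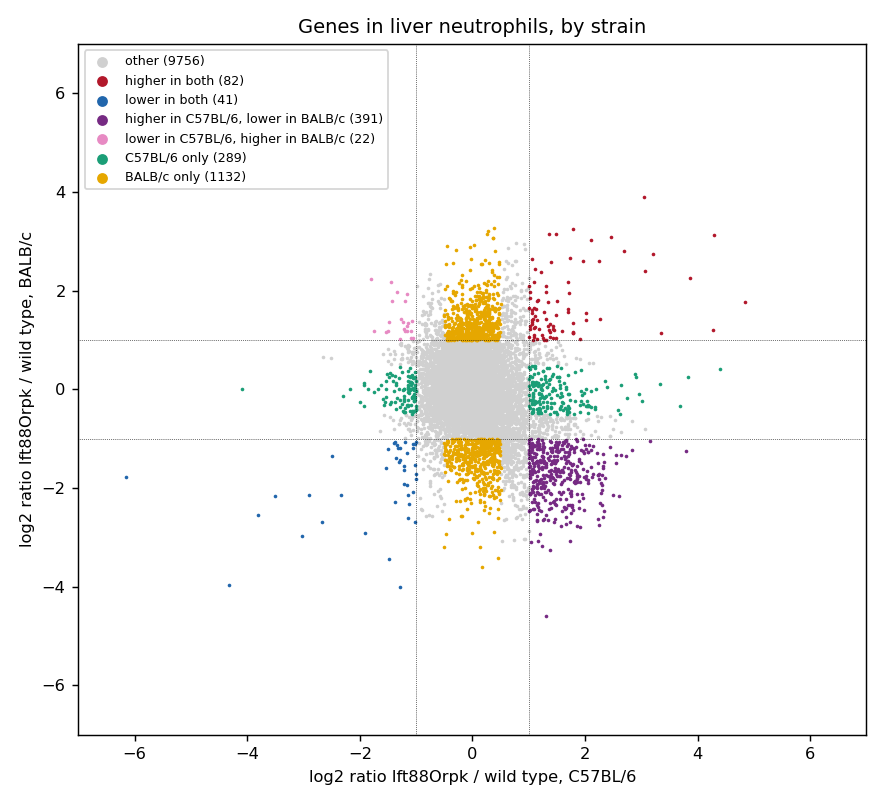
Each point is 1 of 11713 genes; the x axis is the log2 ratio of Ift88Orpk to wild type CPM (plus 1) in C57BL/6 neutrophils and the y axis the same ratio in BALB/c neutrophils. Dotted lines mark 2-fold; the lower right corner (391 genes) holds more genes than the upper right (82) and lower left (41) together.

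The libraries held 10170795 to 22442429 counts in genes, with the fewest in C57BL/6 wild type. Neutrophil markers had the largest sums of the 14 marker lists in all 4 libraries, at 21728 CPM in C57BL/6 wild type, 23113 in C57BL/6 Ift88Orpk, 20009 in BALB/c wild type and 29804 in BALB/c Ift88Orpk. In the 8 macrophage libraries the same 12 genes summed to between 487.6 and 1939 CPM. Csf3r, the receptor for granulocyte colony-stimulating factor, was at 5002 to 10916 CPM, and these levels go with the label.

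Genes of other liver cells were present too, and the levels of several differed with genotype in opposite directions in the 2 strains. Markers of sinusoidal endothelial cells summed to 674 CPM in C57BL/6 wild type and 1925 in C57BL/6 Ift88Orpk, but to 3074 in BALB/c wild type and 685 in BALB/c Ift88Orpk. All 11 of them, Stab2, Kdr and Clec4g among them, went up in C57BL/6 and down in BALB/c, against 3064 of all 11713 genes. Hepatocyte markers summed to 2451, 3592, 5343 and 2566 CPM in that order of libraries, and Kupffer cell markers to 1256, 1475, 2063 and 1278. Stellate cell and fibroblast markers stood at 87.1, 399, 257 and 197 CPM, but without the collagens Col1a1, Col1a2 and Col3a1, split off after the values were seen, the other 8 summed to 70.9, 64.8, 188.5 and 90.9. The sums of the erythroid markers were 47.7, 280, 231 and 159. B and plasma cell markers were lower in Ift88Orpk in both strains, at 225 against 126 CPM in C57BL/6 and 319 against 66.5 in BALB/c. Ly6Chi monocyte markers stood at 3394 and 2617 CPM in C57BL/6, and at 440 and 779 in BALB/c. In the DBA libraries, sinusoidal endothelial markers summed to between 14109 and 23356 CPM, and cholangiocyte markers to between 771.4 and 1512. In bulk libraries, fewer cells of a type and less RNA per cell cannot be told apart, and the part of these cells in the results below was not tested.

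**Figure D2:**
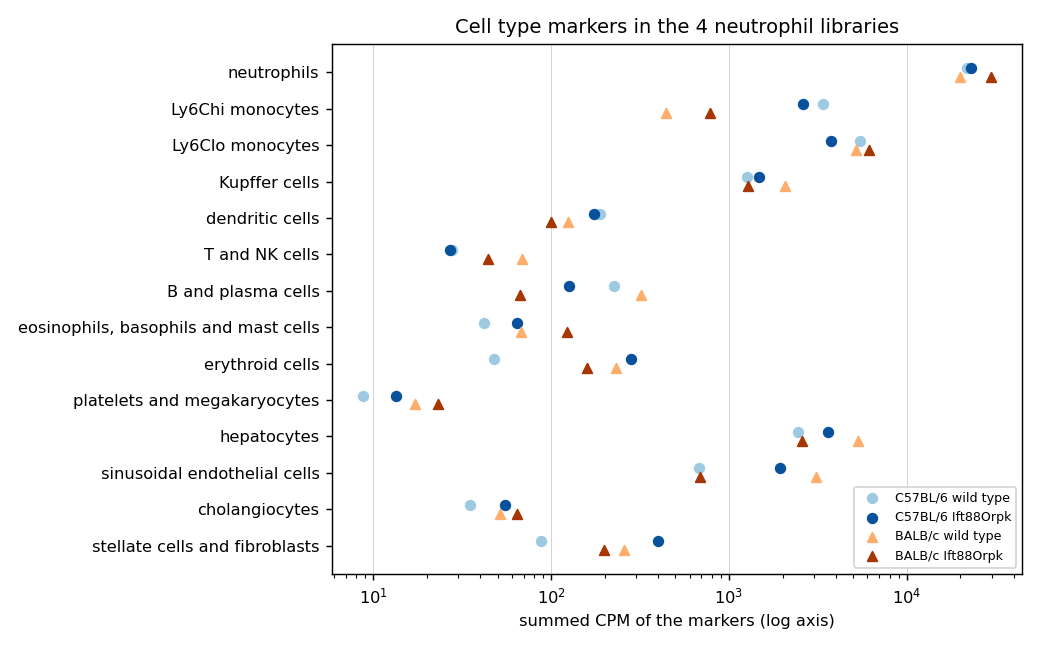
Summed CPM (log axis) of the markers of 14 cell types in each of the 4 neutrophil libraries. Neutrophil markers have the largest sum in all 4 libraries, and the endothelial sum is lowest in C57BL/6 wild type (674) and BALB/c Ift88Orpk (685).

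Ift88 itself was low and higher in the mutant pools. Its level was 2.8 CPM in C57BL/6 wild type, 7.12 in C57BL/6 Ift88Orpk, 1.98 in BALB/c wild type and 8.38 in BALB/c Ift88Orpk, with adjusted p = 1 by edgeR and 0.304 by DESeq2. Gene-level counts of this kind do not show whether the transcript is the altered one. The sexes offer a second check of the pools. Ddx3y, a gene of the Y chromosome, was at 33.7 and 167 CPM in C57BL/6 wild type and Ift88Orpk, and at 98.1 and 267 CPM in BALB/c. Uty, also Y-linked, stood at 11.8 and 33.7 CPM in C57BL/6 and at 14.6 and 35.6 in BALB/c. Xist, which is expressed from the inactive X chromosome, was at 569 and 115 CPM in C57BL/6 and at 190.4 and 174 in BALB/c. The labels give equal numbers of males and females, and the Y-linked levels were higher in the Ift88Orpk pool of both strains, a difference carried by both neutrophil pairs. Ddx3y and Uty are thus among the 82 genes at least 2-fold higher in both strains. For genes that moved the same way in both strains, the share of male RNA and the genotype cannot be told apart here. In C57BL/6 macrophages the Y-linked levels were higher too, with log2 ratios in Ly6Chi and Ly6Clo of 1.25 and 1.28 for Ddx3y and 1.33 and 1.41 for Uty. The Xist ratios there were -3.05 and -1.77. In BALB/c Ly6Clo macrophages the Y-linked levels were lower in Ift88Orpk, with a log2 ratio of -0.97 for Ddx3y and -0.52 for Uty. In BALB/c Ly6Chi macrophages these ratios were 0.22 and -0.02. The BALB/c Xist ratios were 1.79 in Ly6Chi and 2.03 in Ly6Clo macrophages.

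The genes higher in both strains included neighbours in the stefin A cluster on chromosome 16. Stefins A are small cytosolic inhibitors of cysteine cathepsins, expanded in the mouse into a row of near-identical genes, and several are abundant in neutrophils. The annotation (GENCODE, GRCm38) places 10 protein-coding genes from Csta1 to Stfa3 there. The sequences upstream of 4 of them are shown because these genes differed the same way: Stfa2 and Stfa3 are among the 14 genes with the largest ratios in both strains, and Stfa2l1 and Cstdc4 had the highest levels of the cluster. The sequences are RefSeq promoters of GRCm38.p6, 5′ to 3′ on the gene's strand, cut to the bases upstream of both the RefSeq and the GENCODE start. Capitals mark GAGGAA, the core bound by the myeloid factor PU.1, on either strand. They also mark TTTAAA, which resembles the core promoter element bound by TBP.
Stfa2l1, chr16:36156561-36156810, plus strand: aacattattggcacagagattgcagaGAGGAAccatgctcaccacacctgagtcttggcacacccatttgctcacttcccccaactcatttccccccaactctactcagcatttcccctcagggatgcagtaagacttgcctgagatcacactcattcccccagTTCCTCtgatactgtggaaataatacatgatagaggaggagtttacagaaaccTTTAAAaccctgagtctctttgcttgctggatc
Cstdc4, chr16:36183962-36184211, plus strand: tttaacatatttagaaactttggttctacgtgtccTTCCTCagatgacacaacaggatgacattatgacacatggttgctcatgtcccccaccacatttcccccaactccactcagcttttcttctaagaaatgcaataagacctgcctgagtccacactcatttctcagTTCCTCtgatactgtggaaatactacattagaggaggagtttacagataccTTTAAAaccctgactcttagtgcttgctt
Stfa2, chr16:36408458-36408613, minus strand: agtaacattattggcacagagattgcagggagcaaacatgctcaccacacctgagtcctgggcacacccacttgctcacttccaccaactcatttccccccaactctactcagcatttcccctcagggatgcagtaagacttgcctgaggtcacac
Stfa3, chr16:36455393-36455642, minus strand: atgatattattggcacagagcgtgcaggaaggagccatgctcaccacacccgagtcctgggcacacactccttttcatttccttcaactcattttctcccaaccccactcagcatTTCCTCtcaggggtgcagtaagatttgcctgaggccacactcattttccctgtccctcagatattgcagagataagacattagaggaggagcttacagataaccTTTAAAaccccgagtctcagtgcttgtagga

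The 3 upstream windows of 250 bases, those of Stfa2l1, Cstdc4 and Stfa3, each held TTTAAA, 29 to 33 bases before the start. They also each held GAGGAA, with 2 matches in Stfa2l1 and in Cstdc4 and 1 in Stfa3. Of 32851 RefSeq promoters, 12.1% held TTTAAA and 23.3% held GAGGAA in a window of the same length. The window of Stfa2 is 156 bases long and ends before the stretch that holds TTTAAA in the other 3, so the lack of either run in it follows in part from its length. The C/EBP-type run TTGCNNAA, present in 9.56% of windows of 250 bases and 5.7% of 156 bases, was in none of the 4. The motifs were chosen after the sequences were seen. Where they could be aligned, Stfa2l1 and Stfa2 were identical at 95.4% of 152 bases, and the other pairs at 68.4 to 84.0%.

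Stefin transcripts were abundant in neutrophils and more so in the mutant pools. Over the 10 genes the summed level was 203.2 CPM in C57BL/6 wild type, 689.6 in C57BL/6 Ift88Orpk, 215.5 in BALB/c wild type and 942.2 in BALB/c Ift88Orpk. Both mutant pools were above both wild type pools, a separation whose share among all genes was not counted. In the 8 macrophage libraries the sum ran from 0.8 to 30.1 CPM, and in the 4 DBA libraries from 0 to 3.1 CPM. Stfa2 was at 3.95, 95.9, 17.8 and 164 CPM in the 4 neutrophil libraries in the same order, a fold of 24.3 in C57BL/6 (counting interval 17.1 to 35.9) and 9.22 in BALB/c (8.19 to 10.4). These intervals are exact, at 95%, and cover counting error only. Stfa3 stood at 1.53 and 35.6 CPM in C57BL/6 and at 6.93 and 37.0 in BALB/c.

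The members with the highest levels, Stfa2l1 and Cstdc4, changed less than Stfa2 and Stfa3. Stfa2l1 went from 71.4 to 183 CPM in C57BL/6 and from 58.5 to 203 in BALB/c, and Cstdc4 from 92.4 to 205 and from 93.5 to 328. BC100530 went from 5.98 to 57.7 CPM and from 31.7 to 171. Csta3 differed little in C57BL/6 (2.42 and 3.18 CPM) and was at 4.18 and 14.4 in BALB/c. Stfa1 and Csta2 were expressed in C57BL/6, at 22.3 and 92.7 CPM for Stfa1 and 3.18 and 12.2 for Csta2, but Csta2 had no count in either BALB/c pool and Stfa1 had 0 and 18. BC117090 had no count in C57BL/6 wild type and 60 in Ift88Orpk, which makes it at least 9.81-fold higher against a floor of 3 counts. Transcripts of the 9 detected genes were 85.3 to 96.9% identical to their closest neighbour in the cluster over at least 150 aligned bases, so the split of reads among them is uncertain, more so for BALB/c reads set against a C57BL/6 reference. Neither edgeR (adjusted p = 1 for Stfa2) nor DESeq2 (adjusted p = 0.952) called Stfa2. Cstdc4, Csta3, Csta2, BC117090 and BC100530 are named because they lie in the cluster, after their values were seen.

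**Figure D3:**
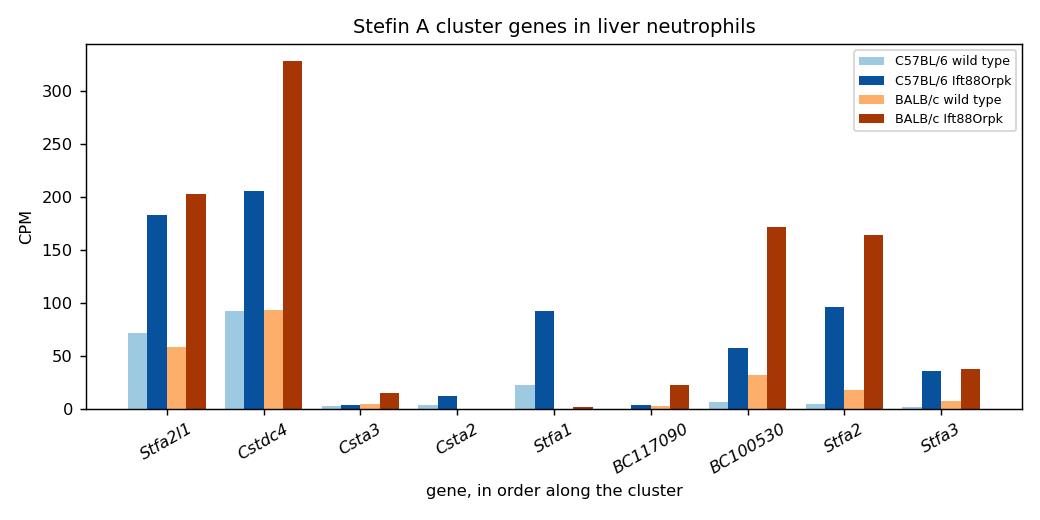
CPM of the 9 detected stefin A genes, in their order along chromosome 16, in the 4 neutrophil libraries (1 pool each, no error bar). The mutant bar stands above the wild type bar of its strain for every gene but Csta2, which had no count in BALB/c.

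Among the other genes higher in both strains, several encode secreted or surface proteins of activated neutrophils. Prok2, a small chemoattractant made by neutrophils, was at 9.68 and 86.5 CPM in C57BL/6 and at 3.13 and 60.4 in BALB/c. Wfdc17, a whey acidic protein family member of activated myeloid cells, stood at 127 and 443 CPM in C57BL/6 and at 26.9 and 263 in BALB/c. In both, the 2 mutant pools lay above the 2 wild type pools. That follows in part from the choice of genes by their same-direction ratios. The share of all genes separated this way was not counted. DESeq2 called Wfdc17 (log2 fold change 2.57, adjusted p = 0.0149) but not Prok2 (adjusted p = 0.972).

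Tlr1, which pairs with TLR2 to sense bacterial lipopeptides, was at 25.9 and 74.2 CPM in C57BL/6 and at 22.3 and 205 in BALB/c, and was called by DESeq2 (adjusted p = 0.035). Nos2, the inducible nitric oxide synthase, stood at 1.02 and 57 CPM in C57BL/6 and at 3.68 and 15.0 in BALB/c. Saa3, an acute-phase protein made outside the liver parenchyma too, went from 4.84 to 18.1 and from 3.63 to 16.8 CPM. The S100A8/S100A9 pair, which makes up calprotectin, was among the most abundant products: S100a9 was at 2265 and 4822 CPM in C57BL/6 and at 1889 and 3938 in BALB/c. S100a8 stood at 3734 and 5641 CPM in C57BL/6 and at 2647 and 5261 in BALB/c.

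Enzymes and membrane proteins made up a second set. Upp1, uridine phosphorylase, went from 23.9 to 81.9 CPM in C57BL/6 and from 17.3 to 116 in BALB/c (DESeq2 log2 fold change 2.29, adjusted p = 0.000842). Qsox1, a sulfhydryl oxidase that forms disulfides in secreted proteins, went from 106 to 263 CPM and from 294 to 1259, with the same DESeq2 adjusted p of 0.000842. Here the C57BL/6 mutant pool lay below the BALB/c wild type pool, so the genotypes separate only within strain. Atp11a, a phospholipid flippase, stood at 194 and 439 CPM in C57BL/6 and at 164 and 582 in BALB/c (DESeq2 adjusted p = 0.00226). Galnt6, which starts O-linked glycosylation, was at 28.1 and 92.8 CPM and at 7.97 and 39.2, and Ggt1, a glutathione-degrading enzyme, at 5.98 and 44.2 and at 1.26 and 14.9. Lipg, an endothelial-type lipase, stood at 3.44 and 40.1 CPM in C57BL/6 and at 1.92 and 18.6 in BALB/c. Prnp, Igfbp6 and Lrp12 were each below 4 CPM in both wild type pools and between 8.74 and 20.6 in the mutant pools.

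DESeq2 called 21 genes higher in Ift88Orpk, and 13 of them were at least 2-fold higher in both strains. Besides those above they include Bcl2l1, whose product Bcl-xL blocks apoptosis, at 62.1 and 130 CPM in C57BL/6 and 35.4 and 227 in BALB/c (adjusted p = 0.0488). App, the amyloid precursor protein, was at 348 and 584 CPM and at 301 and 539 (adjusted p = 0.0289). Tspo, a mitochondrial outer membrane protein, stood at 128 and 238 CPM and at 76.4 and 240.1 (adjusted p = 0.0312). The histone deacetylase Hdac6 was at 5.09 and 13.98 CPM and at 8.08 and 23.5 (adjusted p = 0.0488). Jmjd6 (adjusted p = 0.00177), Mettl13 (0.013) and Uhrf1bp1 (0.017) were called at levels below 31 CPM. Col1a1, a fibroblast collagen, was also called (adjusted p = 0.035), at 6.24 and 139.8 CPM in C57BL/6 and at 17.7 and 42.1 in BALB/c. Col1a1 is itself a member of the stellate and fibroblast list, and the 8 members other than the collagens had no higher sum in the mutant pools, as given above. Singly, Dcn, Des, Pdgfrb and Lum were higher in the C57BL/6 mutant pool, and Lrat, Reln, Acta2 and Ecm1 lower. In BALB/c all of these were lower in the mutant pool.

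Just inside the 2-fold limit lay Wdr5b and Bend4, each at 1.01 in C57BL/6 on the log2 scale, and just outside it Fam20c (1.0 in C57BL/6) and Jmjd6 (1.0 in BALB/c). Areg, the EGF receptor ligand amphiregulin, had no count in either wild type pool and 73 and 82 counts in the C57BL/6 and BALB/c mutant pools. Against a floor of 3 counts per library, that is at least 11.9-fold and 45.3-fold higher.

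**Figure D4:**
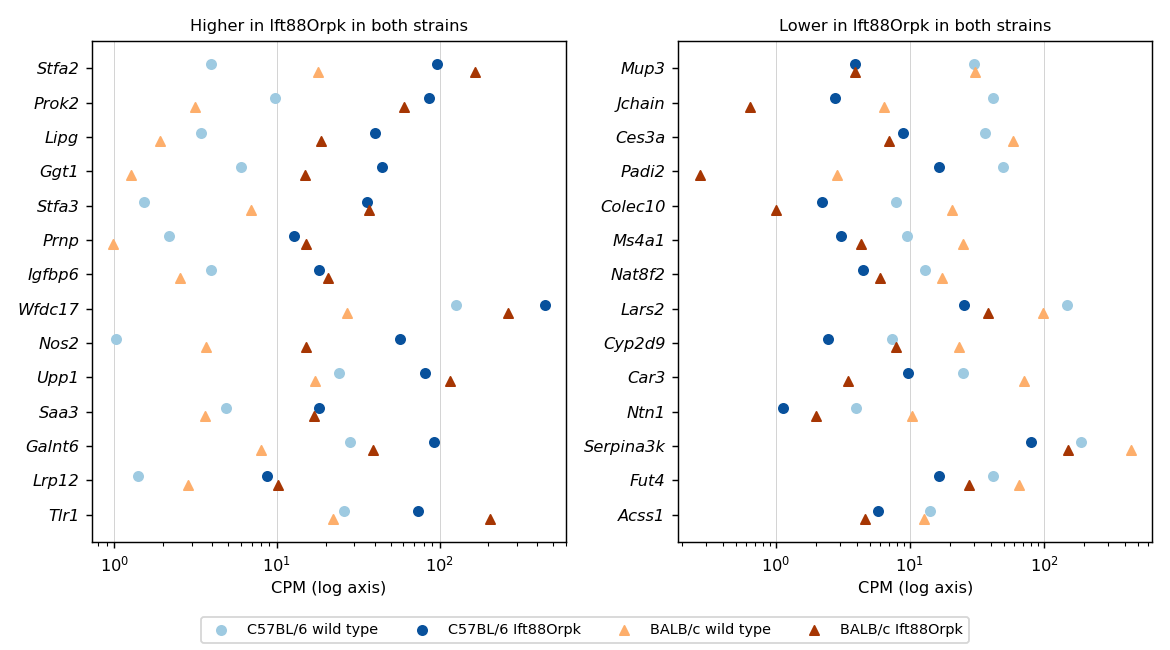
CPM (log axis) in the 4 neutrophil libraries of the 14 genes with the largest same-direction ratios on each side, ranked by the smaller of their 2 strain ratios. Circles are C57BL/6, triangles BALB/c, dark symbols Ift88Orpk; within each strain the dark symbol lies on the same side for every gene, while for a few, such as Cyp2d9, the genotypes overlap across strains.

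Antibody genes were among those lower in both strains. Ighg2b, the IgG2b heavy chain constant region, had 149 and 266 counts in the C57BL/6 and BALB/c wild type pools and none in either mutant pool. That is at least 101-fold and 53.5-fold lower against a floor of 3 counts per library, and DESeq2 called it with adjusted p = 5.35e-05. Igkc, the kappa light chain, was at 84.7 and 9.55 CPM in C57BL/6 and at 34.6 and 3.55 in BALB/c (DESeq2 adjusted p = 0.017). Jchain, which joins IgA and IgM polymers, stood at 41.5 and 2.75 CPM and at 6.38 and 0.64. Ms4a1, which encodes CD20 of B cells, was at 9.55 and 3.06 CPM and at 24.9 and 4.28. They moved with the B and plasma cell marker sum given above. Of its 8 measured members, 7 were lower in both strains, against 18.9% of all genes. That list holds Jchain and Ms4a1.

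Liver genes were also among them. Mup3, a major urinary protein, was at 30.1 and 3.87 CPM in C57BL/6 and at 30.7 and 3.91 in BALB/c. Serpina3k, a secreted serpin, stood at 187 and 79.9 CPM and at 445 and 150.04. Cyp2d9, Ces3a, Nat8f2 and Car3 had mutant levels of 2.43 to 9.68 CPM and wild type levels of 7.38 to 71.0. Major urinary proteins and Cyp2d9 are male-predominant in mouse liver. The hepatocyte marker sum was higher in C57BL/6 Ift88Orpk than in wild type (3592 and 2451 CPM), unlike these genes. Most of it was Alb (2639 and 1808 CPM). Of 10 measured markers, 8 were higher in C57BL/6 and lower in BALB/c, 1 was higher in both strains and 1 lower in both. Serpina1c, a listed marker below the minimum level, was lower in both, with log2 ratios of -1.24 in C57BL/6 and -2.16 in BALB/c. The part of hepatocyte RNA in the levels of Mup3 and the other liver genes was not tested. In Ly6Chi macrophages the log2 ratio of Mup3 was -2.39 in C57BL/6 and -3.14 in BALB/c, and in Ly6Clo macrophages -1.82 and -2.81. Colec10, a collectin, was at 7.89 and 2.19 CPM and at 20.6 and 1.0, and was called by DESeq2 (adjusted p = 0.0395).

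Of the 41 genes, 11 had their highest population mean in neutrophils. Padi2, a peptidylarginine deiminase of granulocytes, stood at 49.3 and 16.4 CPM in C57BL/6 and at 2.86 and 0.27 in BALB/c, where the mutant had 3 counts (ratio 0.0955, counting interval 0.0191 to 0.295). Fut4, a fucosyltransferase that builds selectin ligands, was at 41.9 and 16.5 CPM and at 64.8 and 27.8. Lars2, the mitochondrial leucyl-tRNA synthetase, was at 147 and 25.2 CPM and at 98.7 and 38.1. Acss1, a mitochondrial acetyl-CoA synthetase, went from 14.1 to 5.74 and from 12.7 to 4.64. CT010467.1, a locus with a clone name whose product was not examined, was at 196 and 13.2 CPM in C57BL/6 and at 304 and 50.9 in BALB/c (DESeq2 adjusted p = 0.000842). Mitochondrially encoded messenger RNAs were lower in both strains for all 7 of the 13 that passed 5 CPM, with medians of -1.0 and -1.35. Of all genes, 18.9% were lower in both. mt-Co1, a cytochrome oxidase subunit, was at 13467 and 6714 CPM in C57BL/6 and at 15346 and 4350 in BALB/c. None of the 33 measured nuclear-encoded respiratory chain genes was 2-fold lower in both; their medians were 0.19 and -0.2. Mitochondrial counts made up 7.74 and 5.22% of gene counts in C57BL/6 wild type and Ift88Orpk and 11.05 and 3.15% in BALB/c. They were lower in Ift88Orpk in both macrophage types too, at 9.56 and 5.97% in C57BL/6 and 6.66 and 2.98% in BALB/c for Ly6Chi, and at 7.67 and 5.55% and 4.78 and 2.64% for Ly6Clo.

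Genes higher in BALB/c only were largely genes with their highest level in neutrophils. Of the 639, 472 had their highest population mean in neutrophils, which is 11.3% of the 4184 genes of that kind. The 5 with the largest ratios were Gpr84, Creb5, Havcr2, Zbp1 and Traf1. Gpr84, a receptor for medium-chain fatty acids, was at 12.2 and 16.2 CPM in C57BL/6 and at 6.27 and 69.4 in BALB/c. Havcr2, the checkpoint receptor TIM-3, stood at 19.1 and 24.9 CPM and at 5.61 and 54.5. Zbp1, a sensor of Z-form nucleic acids, was at 142 and 144.5 CPM in C57BL/6 and at 20.4 and 162 in BALB/c. Traf1, an NF-kB-induced adaptor, stood at 38.8 and 37.7 CPM and at 15.0 and 118. In all 4 of these genes, BALB/c wild type was the lowest library, and BALB/c Ift88Orpk the highest. The standard errors (SE) that follow rest on the spread in the other sorted populations, not in neutrophils. For Zbp1 the difference between the strains' responses was 2.99 ± 0.46 (SE) on the log2 scale, with an adjusted p of 0.161 by edgeR and 0.00012 by DESeq2. For Havcr2 it was 2.93 ± 0.7 (0.233 by edgeR, 0.029 by DESeq2).

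Several lists of inflammatory genes had higher levels in BALB/c Ift88Orpk, and so did Ly6Chi monocyte markers. Of the 11 monocyte markers, 7 were at least 2-fold higher in BALB/c, with medians of -0.33 in C57BL/6 and 1.14 in BALB/c. The 12 neutrophil markers had medians of -0.13 in C57BL/6 and 0.55 in BALB/c. The part of either marker set in the inflammatory, glycolysis, cytokine and receptor lists was not tested. Of 26 measured NF-kB targets and inflammatory mediators, 15 were at least 2-fold higher in BALB/c and 1, Nos2, in C57BL/6. The medians were 1.07 and -0.25. Of all genes, 8.19% were at least 2-fold higher in BALB/c and 7.39% in C57BL/6, and the counts of the lists below stand beside the same shares. Tnfaip3, the NF-kB inhibitor A20, was at 1906 and 1568 CPM in C57BL/6 and at 1844 and 5794 in BALB/c. Acod1, which makes itaconate, stood at 1866 and 2076 CPM and at 1027 and 6032. Ptgs2, the inducible cyclooxygenase, was at 4169 and 3667 CPM and at 4236 and 8011. DESeq2 called a difference between strains for 10 of the 26, all with the higher ratio in BALB/c; it called 171 in that direction among all 11713 genes.

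Glycolysis and hypoxia genes were the list with the largest BALB/c median, 1.15, and a C57BL/6 median of 0.18. Of the 33 measured, 23 were higher in both strains and 1 was lower in both, against 21.7% and 18.9% of all genes. At least 2-fold higher were 20 in BALB/c and 1 in C57BL/6. Slc16a3, the lactate exporter MCT4, was at 1953 and 2181 CPM in C57BL/6 and at 3036 and 6806 in BALB/c. Egln3, a prolyl hydroxylase induced by low oxygen, stood at 23.9 and 46.5 CPM and at 11.3 and 86.7. Pfkl, the liver-type phosphofructokinase, was at 49.4 and 90.7 CPM and at 37.7 and 152. DESeq2 called a strain difference for 3 of the 33, with the higher ratio in BALB/c, against the 171 of 11713 genes given above.

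Cytokines and receptors followed. Of 16 interleukin 1 family genes, 8 were at least 2-fold higher in BALB/c (medians 0.21 in C57BL/6 and 0.99 in BALB/c). Il1b was the most abundant, at 13393 and 10917 CPM in C57BL/6 and at 14393 and 21316 in BALB/c. Nlrp3, the inflammasome sensor, stood at 1668 and 1441 CPM and at 1356 and 3035. Among 27 chemoattractant and cytokine receptors 11 were at least 2-fold higher in BALB/c and none in C57BL/6 (medians -0.17 and 0.94). Csf2rb2, a receptor subunit for interleukin 3, was at 127 and 189 CPM and at 56.2 and 309. Of the 13 measured chemokine ligands, Cxcl2, a neutrophil attractant, was the most abundant, at 1561 and 1826 CPM and at 1317 and 4553, and Cxcl1 was 2-fold higher in both strains, at 3.18 and 8.05 CPM and at 12.2 and 35.7.

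Recognition receptors, interferon-stimulated genes and survival genes had positive medians in BALB/c and medians below 0 in C57BL/6. For 21 pattern recognition receptors they were 0.76 and -0.12, with Cd14, a lipopolysaccharide co-receptor, at 926 and 1420 CPM in C57BL/6 and at 619 and 2985 in BALB/c. For 36 type I interferon-stimulated genes they were 0.54 and -0.26. Of these 36, 25 were lower in C57BL/6 and higher in BALB/c, against 3855 of all 11713 genes. Slfn4, a schlafen of myeloid cells, was at 2152 and 2549 CPM and at 3964 and 7618. For 22 survival and cell death genes they were 0.8 and -0.08. Mcl1, needed for neutrophil survival, was at 4136 and 4006 CPM and at 3860 and 6591. Of 26 immediate early genes, with medians of 0.56 and -0.16, 6 were at least 2-fold higher in BALB/c and 1 in C57BL/6. The shares of all genes were 8.19% and 7.39%. The neutrophil markers had medians of the same signs, 0.55 in BALB/c and -0.13 in C57BL/6.

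Granule proteins are made in the bone marrow. Of 11 specific granule genes, 5 were lower in C57BL/6 and higher in BALB/c, 4 lower in both strains and 2 higher in both (medians -0.13 in C57BL/6 and 0.16 in BALB/c). Of all 11713 genes, 3855, 2216 and 2541 fell in these classes. Ltf, lactoferrin, was at 755 and 359 CPM in C57BL/6 and at 1032 and 683 in BALB/c. Ngp stood at 751 and 363 CPM and at 897 and 650.2, and Camp, cathelicidin, at 111 and 60.3 and at 161 and 81.9. These are late bone marrow products, and their messenger RNA marks younger neutrophils. Lcn2, lipocalin 2, stood at 565 and 526 CPM and at 411 and 730.4. Only 3 of 9 azurophil granule genes passed 5 CPM; Mpo, myeloperoxidase, was at 2.29 and 0.87 CPM and at 5.06 and 3.28. Of 9 gelatinase granule and secretory vesicle genes, 3 were at least 2-fold higher in BALB/c, against 8.19% of all genes. The medians were 0.02 and 0.78, and the C57BL/6 median turned negative under relative log expression and upper-quartile factors. Fpr1, a formyl peptide receptor, was at 183 and 221 CPM and at 139 and 315. Cxcr4, which holds neutrophils in the marrow and marks aged ones, was at 1818 and 1166 CPM and at 1472 and 1406.

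Suppressor and tumour-associated neutrophil genes had medians of -0.05 in C57BL/6 and 0.85 in BALB/c, and matrix, protease and profibrotic genes of 0.33 and 0.41. Of 24 redox genes 23 were measured, and 3 were at least 2-fold higher in BALB/c (medians -0.12 and 0.34), a share near the 8.19% of all genes. Of 31 measured cell cycle genes, 14 were at least 2-fold higher in C57BL/6, against 7.39% of all genes. In BALB/c 4 were at least 2-fold lower, a share near the 10.9% of all genes. The cell cycle medians were 0.91 in C57BL/6 and -0.45 in BALB/c. The endothelial and erythroid sums went the same way, and their part in this was not tested. Early precursor genes (0.54 and -0.63) and ribosomal protein genes (0.11 and -0.39) had the same pair of signs, the ribosomal C57BL/6 median turning negative under upper-quartile scaling. Of 34 intraflagellar transport and cilium genes, 22 were measured, with medians of 0.1 and 0; Ift88 was the 1 member at least 2-fold higher in both strains. Ift172 was at 19.4 and 25.8 CPM and at 13.3 and 21.7, and Ift140 at 17.3 and 12.7 and at 23.3 and 15.7. No list held a gene called by edgeR.

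**Figure D5:**
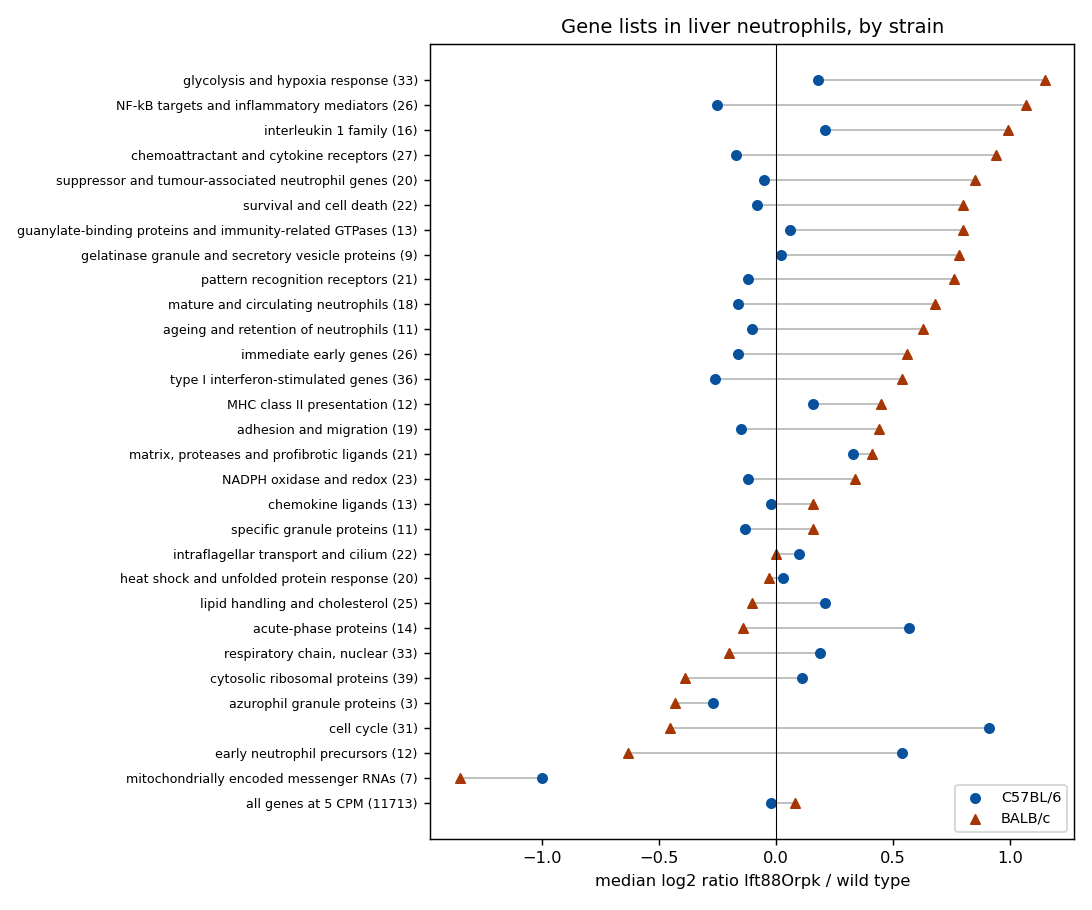
Median log2 ratio of Ift88Orpk to wild type over the measured members (number in brackets) of each gene list in C57BL/6 (circles) and BALB/c (triangles), with all 11713 genes in the bottom row. The 2 medians lie on the same side of 0 for glycolysis and hypoxia (0.18 and 1.15) and for mitochondrial messenger RNAs (-1.0 and -1.35), and on opposite sides for NF-kB targets (-0.25 and 1.07) and cell cycle genes (0.91 and -0.45).

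Genes higher in C57BL/6 only were mostly not neutrophil genes. Of the 182, 147 (80.8%) had a higher mean in the DBA libraries than in neutrophils, against 5563 of all 11713 genes. Col1a2 and Col3a1, fibrillar collagens, led them: Col1a2 was at 2.93 and 81.5 CPM in C57BL/6 and at 17.2 and 23.2 in BALB/c, and Col3a1 at 7.0 and 113 and at 34.0 and 40.8. DESeq2 called a strain difference for Col1a2 (adjusted p = 0.0156) and Col3a1 (0.0424); edgeR did not (0.231 and 0.264). Both belong to the stellate and fibroblast list, whose 8 other members apart from Col1a1 summed to 70.9 and 64.8 CPM in C57BL/6. Lmna, a nuclear lamin, stood at 3.82 and 29.1 CPM and at 7.97 and 8.47. Rprl3, a ribonuclease P RNA-like gene, had no count in C57BL/6 wild type and 191 in the mutant, at least 31.2-fold higher against a floor of 3 counts, and was at 25.2 and 19.7 CPM in BALB/c. Armcx4 was at 1.66 and 20.5 CPM in C57BL/6 and at 24.8 and 20.9 in BALB/c. For Rprl3 and Armcx4 the C57BL/6 wild type pool, the one with the fewest counts, stood below the other 3, and for Lmna, Col1a2 and Col3a1 the C57BL/6 Ift88Orpk pool stood above them.

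Genes lower in C57BL/6 only were fewer. Tnfsf13b, the B cell survival factor BAFF that neutrophils secrete, stood at 42.4 and 15.4 CPM in C57BL/6 and at 42.2 and 41.3 in BALB/c. Scnn1a, an epithelial sodium channel subunit, was at 97.4 and 43.2 CPM and at 24.1 and 24.2. Calhm2 and Rabepk, at 49.3 and 53.3 CPM in C57BL/6 wild type, were at 20.7 and 23.7 in the mutant. For these genes, neither tool called a strain difference (adjusted p of 0.377 to 0.609 by edgeR and 0.266 to 0.501 by DESeq2).

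Genes lower in BALB/c only included genes of other cells. Of the 493, 399 (80.9%) had a higher mean in the DBA libraries, against 5563 of all 11713 genes. Itga8, an integrin of mesenchymal cells, was at 20.6 and 28.5 CPM in C57BL/6 and at 49.5 and 3.73 in BALB/c. Wnt2, a Wnt ligand of liver endothelium, was at 8.53 and 12.1 CPM and at 28.5 and 4.46. Vipr1 and Pgm5 were at 26.9 and 27.8 CPM in BALB/c wild type and at 2.64 and 4.37 in the mutant.

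Genes that differed in opposite directions mostly had higher means in the DBA libraries. Of the 391 that were higher in C57BL/6 and lower in BALB/c, 375 (95.9%) had a higher mean in the DBA libraries. Of all 11713 genes, 5563 did. In those libraries the endothelial marker sums exceeded the cholangiocyte marker sums, as given above. Dll4, a Notch ligand of endothelial cells, was at 4.2 and 24.7 CPM in C57BL/6 and at 30.8 and 5.28 in BALB/c. Tek, the angiopoietin receptor TIE2, stood at 12.5 and 52.4 CPM and at 79.7 and 13.8. Fscn1, an actin-bundling protein, was at 4.71 and 33.9 CPM and at 45.0 and 9.29, Cdc42ep1 at 3.18 and 18.9 and at 21.5 and 2.37, and Ntn4, a basement membrane netrin, at 4.2 and 24.6 and at 13.9 and 2.64. All 5 had the pattern of the endothelial sum, with C57BL/6 wild type and BALB/c Ift88Orpk as the 2 low libraries. DESeq2 called all 5 for strain by genotype (adjusted p from 0.0022 to 0.025), and edgeR none (0.181 to 0.253).

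Over the whole table, DESeq2 called 176 genes with a higher ratio in BALB/c than in C57BL/6, of which 120 (68.2%) had their highest mean in neutrophils. It called 306 with a lower ratio, of which 303 (99.0%) had a higher mean in the DBA libraries than in neutrophils and 1 had its highest mean in neutrophils. Dmbt1, a scavenger receptor-like glycoprotein, had the smallest DESeq2 p, with 4.33 and 12.2 CPM in C57BL/6 and 212 and 7.74 in BALB/c (adjusted p = 2.93e-09, against 0.133 by edgeR). Arhgap35, Dock6, Rcn1, Mfge8 and Cbx6 had the same edgeR adjusted p of 0.133 and were likewise higher in C57BL/6 Ift88Orpk and lower in BALB/c Ift88Orpk. Apba1, with the same edgeR adjusted p, went the reverse way, at 39.1 and 20.9 CPM in C57BL/6 and 0.33 and 3.91 in BALB/c (DESeq2 adjusted p = 2.06e-05). At 20 CPM, 3 genes were at least 2-fold lower in C57BL/6 and higher in BALB/c. Apart from the predicted gene Gm14963 they were Il2rg, the common cytokine receptor gamma chain, at 25.7 and 10.99 CPM in C57BL/6 and at 11.8 and 27.9 in BALB/c, and Tgif2, a transcriptional repressor, at 22.3 and 10.2 and at 11.6 and 25.1. Il2rg was called by DESeq2 (adjusted p = 0.00341; edgeR 0.162), and Tgif2 by neither (0.294 and 0.419).

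The same genotypes were sorted as Ly6Chi and Ly6Clo macrophages, which allows the neutrophil response to be set beside theirs. The test of the difference, neutrophils against the mean of the 2 macrophage types, called 0 of 21534 genes by edgeR (0.0%), with 553 (2.57%) at an unadjusted p below 0.05. DESeq2 called Ighg2b and the clone-named locus CT010467.1, both with the lower genotype ratio in neutrophils. Of the 82 genes higher in both strains in neutrophils, 3 were at least 2-fold higher in both strains in Ly6Chi macrophages (3.66%, against 0.316% of all genes) and 3 in Ly6Clo macrophages (3.66% against 0.512%). Of the 41 lower in both, 9 were so in Ly6Chi macrophages (22.0% against 0.162%) and 5 in Ly6Clo macrophages (12.2% against 0.0939%). Whether the 3 populations came from the same mice is not stated, so these shares may not be independent. Qsox1, with log2 ratios of 1.3 and 2.09 in neutrophils, had 0.28 and 0.12 in Ly6Chi and 0.38 and -0.21 in Ly6Clo macrophages, and Jmjd6, at 1.32 and 1.0, had 0.07 and 0.24 and then 0.13 and -0.04. Upp1 was higher in all 6 pairs, by 0.84 and 0.4 in Ly6Chi and by 1.47 and 1.13 in Ly6Clo macrophages. For Stfa2 the C57BL/6 pairs gave 2.37 in Ly6Chi and 2.14 in Ly6Clo macrophages, and the BALB/c pairs 0.33 and -0.63. These ratios rest on low levels: 0.08 and 4.58 CPM, and 0 and 3.41, in C57BL/6, and 0 and 0.26, and 1.75 and 0.77, in BALB/c. In the same C57BL/6 pairs the neutrophil markers Cxcr2 (1.65 and 2.2) and Mmp9 (1.83 and 1.5) were higher. Camp was lower in both (-0.42 and -0.43), and Ngp and Ltf in Ly6Clo. The part of neutrophil RNA in the Stfa2 ratios was not tested.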

How the data were processed

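RNA of sorted liver cells was pooled over 6 to 8 mice per library, and the libraries were ribosome-reduced and sequenced in pairs, per the labels' protocols. The deposited values are raw counts per Ensembl gene, made by the authors with STAR on GRCm38/mm10 and HTSeq-count 0.9.1, per the labels' protocols; the submitters' processing notes also name bcl2fastq 2.18.0.12. The strand setting is not given in the sources used here, so overlapping antisense genes cannot be told apart. Of 48795 identifiers, 48435 matched a GENCODE symbol; 5 summary lines were left out.

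All 16 libraries were fitted with edgeR 4.0.16 (R 4.3.3), TMM factors and low-count filtering, with population, strain within population and genotype within population (4 residual degrees of freedom; 3 with strain by genotype in neutrophils). DESeq2 1.42.0 was the alternative. The edgeR genotype fit was run on simulated counts with the same change planted in both strains. The strain by genotype fit, the comparison with macrophages and DESeq2 were not tested in that way. Ratios use CPM plus 1, for genes at 5 CPM in at least 1 neutrophil library. Named genes were the 14 on each side with the largest smaller ratio (at 10 CPM), up to 5 per direction of each strain-specific or opposite class (at 20 CPM), 10 by p for each test, and up to 4 by level and 4 by ratio per list; predicted, antigen receptor, mitochondrial and sex-linked genes were skipped in the first 3. Members and lists were chosen with earlier results of these data known. Strain pairs the samples and is in the model. Transcripts were aligned with BLAST 2.17.0. A few genes that the naming rule picked are not reported here.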

Additional observations from a re-analysis of the deposited data

Results flagged for a closer look

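Some values stood out because the 2 strains went opposite ways under the same contrast. The figures are the BALB/c log2 ratio of Ift88Orpk to wild type minus the C57BL/6 ratio, with 1 library per group, so by themselves they are not tests. The summed sinusoidal endothelial markers differed by -3.68, and this difference of sums was not tested. Of the genes lower in BALB/c, the difference was -4.64 for Dll4, -4.99 for Cdc42ep1, -4.77 for Fscn1, -4.33 for Ntn4 and -4.43 for Tek. Il2rg (2.34) and Tgif2 (2.1) went the reverse way. The strain by genotype test of these 7 genes gave edgeR adjusted p-values of 0.162 to 0.419, while DESeq2 called all but Tgif2.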

How the results depend on the processing

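No gene was called by edgeR for genotype, for strain by genotype or for neutrophils against macrophages under any alternative run with it. Leaving out each neutrophil library gave 0 to 0 for genotype and for the comparison with macrophages; strain by genotype in neutrophils needs all 4. DESeq2 called 26, 482 and 2. The size classes depended on the settings. As reported, 82 genes were higher in both strains, 41 lower in both, 413 opposite, 289 changed in C57BL/6 only and 1132 in BALB/c only. A pseudocount of 5 CPM gave 27, 16, 132, 99 and 694. A minimum of 20 CPM gave 40, 23, 177, 52 and 588. With no minimum, 131 were higher and 74 lower in both, and 928 and 1849 changed in 1 strain only. Among genes highest in neutrophils, a setting chosen after seeing the data, 11 were lower in both, 25 opposite, and 68 and 530 changed in C57BL/6 only and BALB/c only. All 28 named same-direction genes kept their sign under the scalings, pseudocounts and minimums tried, and 20 stayed at least 2-fold in both strains at a pseudocount of 5 CPM. The 81 results on named genes were compared 567 times with an alternative; 505 moved by less than the spread and 5 changed sign. The labels give the samples no replicate numbers; strain pairs them as the block of the model, and without the strain block 0 genes were called for genotype. With 1 pool per strain and genotype, pool and genotype cannot be told apart, and the fewest counts, in C57BL/6 wild type, limit ratios of low genes most.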
